A study of Mus musculus with 27 samples.

Results

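The genes described here are 9 genes of the oligodendrocyte lineage, Olig1, Olig2, Sox10, Sox8, Nkx2-2, Pdgfra, Cspg4, Gpr17 and Mbp, which were taken by symbol from the 55416 gene rows of a read-count table of the fetal mouse brain. RNA of the whole brain of single fetuses was sequenced in 27 libraries, 3 for each combination of 3 strains with gestational day 12 (d12), d15 or d17, where the day of the vaginal plug is day 1. The strains were the inbred strain AKR/J, the inbred strain C57BL/6J, and B6.Cg-Cav1tm1Mls/J (Cav1-null), a line on a C57BL/6J background in which the gene of caveolin-1 is disrupted in every cell. The study set AKR/J and Cav1-null mice, as short-lived strains, against C57BL/6J, as a long-lived strain, and no group received a treatment. All fetuses were labelled female. The labels do not say whether fetuses of a group shared a litter, so p-values measure the spread between these libraries only.

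Oligodendrocytes wrap axons in myelin. In the embryo they come from ventral progenitors that respond to Sonic hedgehog and express Olig2 and Nkx2-2, and these give rise to precursor cells that carry the receptor Pdgfra and the proteoglycan Cspg4 (NG2) and divide in response to platelet-derived growth factor. Sox10 is switched on as cells enter the lineage, Gpr17 marks committed precursors shortly before they mature, and Mbp codes for a main protein of compact myelin, which in the mouse brain forms mostly after birth. Several of these genes are not exclusive to the lineage. Olig2 is also expressed in neuronal progenitors, Sox10 and Sox8 in neural crest cells, Pdgfra in meningeal and connective tissue cells, and Cspg4 in pericytes.

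The libraries held 26363697 to 39759702 reads on genes. Values are counts scaled to library size (CPM, counts per 1000000 reads), the share of a gene in the reads of a library whose size was scaled by TMM. Cav1 lay at 0 to 0.509 CPM in Cav1-null mice, against 9.24 to 34.2 CPM in the libraries of AKR/J and 10.4 to 39.9 CPM in those of C57BL/6J. Several libraries stood apart. Against the label, Cav1-null d12 replicate 2 had 121 Xist reads and 14005 reads on 4 genes of the Y chromosome, and AKR/J d15 replicate 3 had 103 Xist reads and 0 reads on these genes, whereas 25 libraries had at least 53005 Xist reads. AKR/J d12 replicate 1 had 67235 Xist reads together with 1229 reads on the Y genes, against at most 16 in the other libraries with high Xist. The summed expression of 10 meningeal and connective tissue genes, such as Col1a1 and Dcn, was 1316 CPM in AKR/J d15 replicate 2 and 1207 CPM in Cav1-null d12 replicate 3, against 126 to 144 and 158 to 212 CPM in the other libraries of these groups. It was 5186 CPM in C57BL/6J d15 replicate 1 and 1165 CPM in C57BL/6J d17 replicate 1, against 367 to 600 and 111 to 186 CPM. In AKR/J on d12, 10 erythroid genes summed to 33204 to 197819 CPM, against 569 to 18614 CPM in the other 24 libraries. None of the 10 connective tissue genes was at 0 reads in any library. Counts of called genes without single libraries are given beside the results they moved most.

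Olig1 and Gpr17 were each called as rising in 5 of the 6 comparisons of days, Nkx2-2 was called as falling in 2, and on d15 all of the 9 genes were lower in Cav1-null mice than in C57BL/6J, where 58.6% of all tested genes were called and 31.8% were lower and called, and 6 of the 9 in AKR/J, where these shares were 41.1% and 22.3%. With all 27 libraries in 1 model, 5 of the 9 were lower in Cav1-null mice. The sum of the 9 genes was 119 to 140 CPM on d12, 179 to 222 CPM on d15 and 174 to 351 CPM on d17 in C57BL/6J. In AKR/J it was 56.8 to 93.2, 76.0 to 128 and 122 to 134 CPM on the same days, and in Cav1-null mice 76.1 to 119, 77.5 to 94.9 and 166 to 177 CPM. The sum thus overlapped between d15 and d17 in C57BL/6J and AKR/J, and between d12 and d15 in AKR/J and Cav1-null mice. Less RNA of a lineage in whole brain can stand for fewer cells or for less RNA per cell, and these cannot be told apart here.

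**Figure D1:**
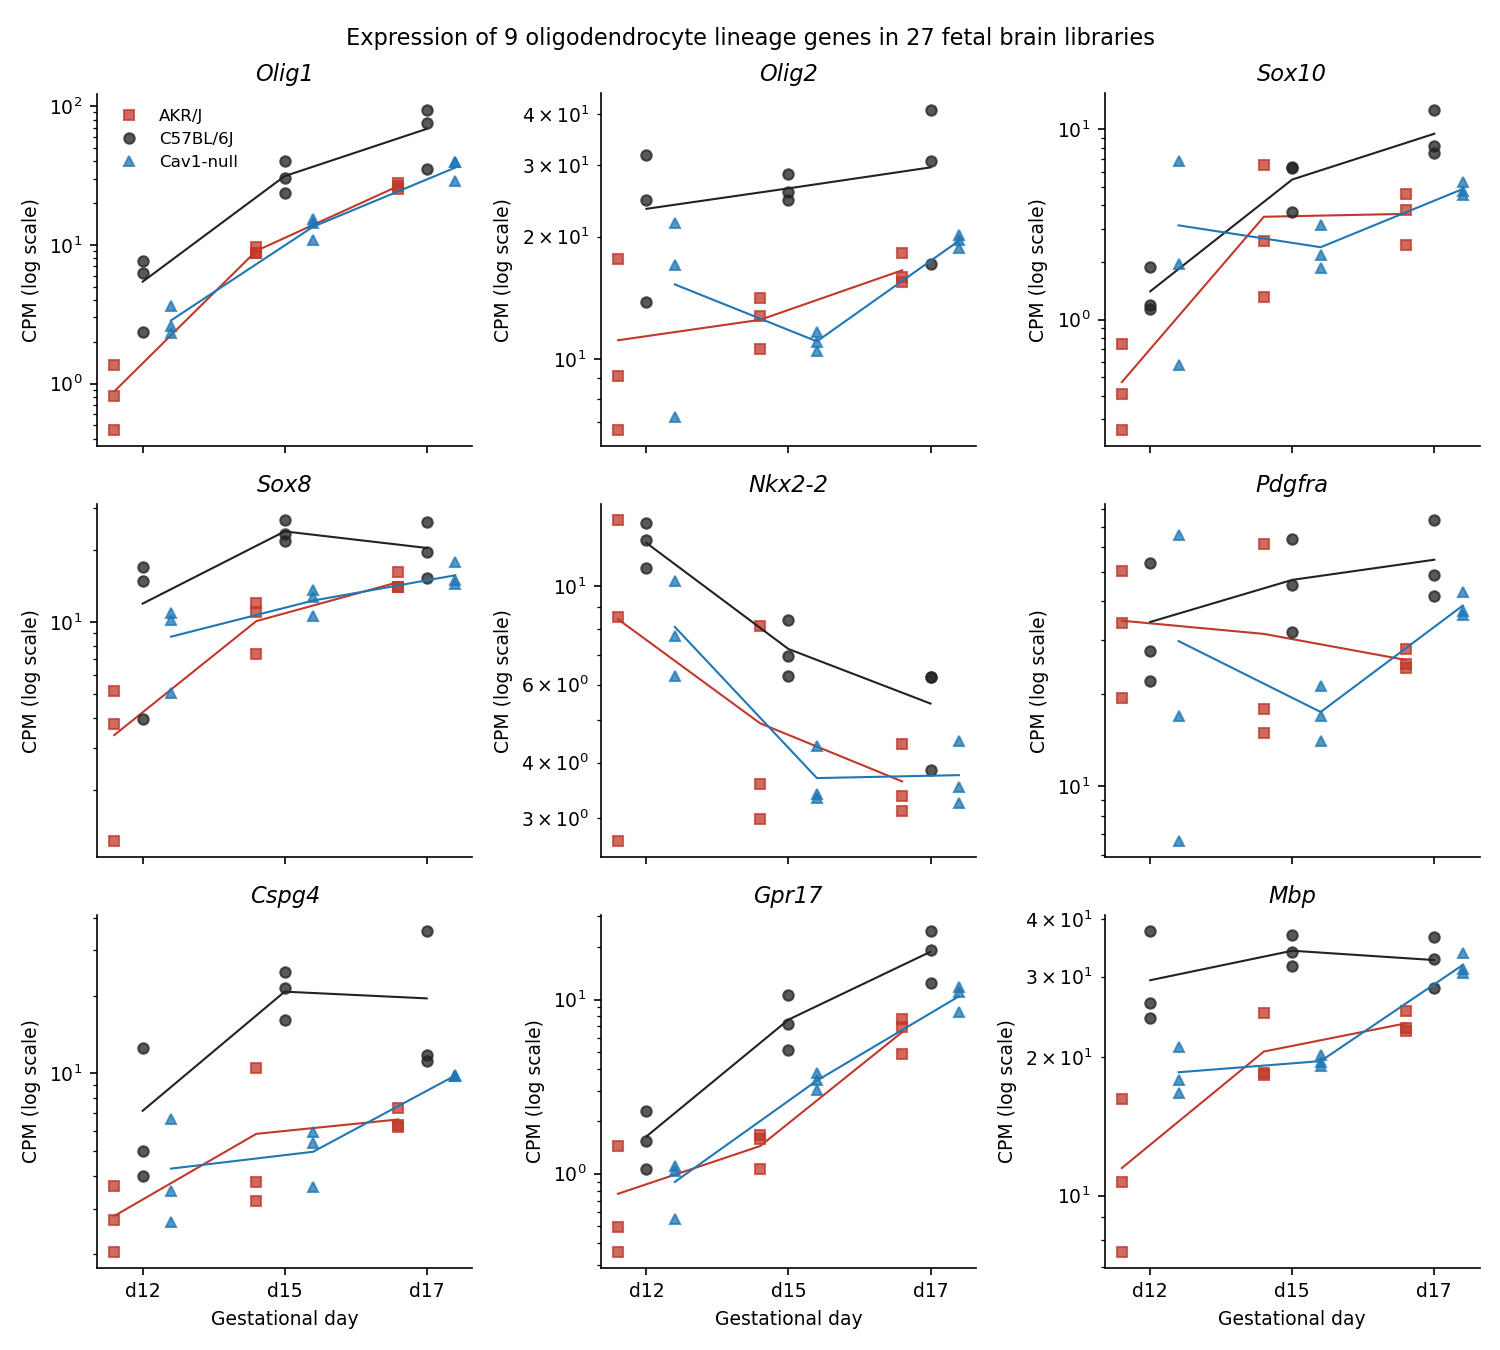
Expression of the 9 genes (CPM, log scale) by gestational day, with 1 point per library and a line through the mean of the 3 libraries of each strain and day. Olig1 lay at 0.461 to 7.64 CPM on d12 and at 25.2 to 94.4 CPM on d17, while Nkx2-2 was lower on d17 than on d12 in the mean of each strain.

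Per kilobase of exon, the order of the 9 genes changed over gestation. In C57BL/6J on d12, Olig2 was the highest at 5.65 ± 2.18 CPM per kb (SD, n = 3), followed by Nkx2-2 at 4.37 ± 0.500, and Gpr17 was the lowest at 0.303 ± 0.113 CPM per kb. Every neighbouring pair in that order overlapped between libraries. On d17, Olig1 led at 31.7 CPM per kb in C57BL/6J (16.3 to 43.6 over 3 libraries), 12.3 ± 0.600 in AKR/J and 16.6 ± 2.83 in Cav1-null mice, and did not overlap with Olig2, the next gene in each strain, at 7.14 ± 2.90, 3.99 ± 0.347 and 4.72 ± 0.171 CPM per kb. Cspg4 was the lowest on d17 in all 3 strains, at 0.555 to 1.63 CPM per kb. Neighbours overlapped on d17 from Nkx2-2 through Gpr17 to Sox10 in AKR/J, and from Olig2 to Sox10 and between Nkx2-2 and Cspg4 in C57BL/6J. In Cav1-null mice the overlapping neighbours were Mbp, Pdgfra and Sox8 (3.26 ± 0.175, 3.15 ± 0.302 and 3.09 ± 0.351 CPM per kb), and Gpr17, Sox10 and Nkx2-2. With the length of the longest transcript in place of the merged exons, Olig1 led and Cspg4 was the lowest on d17 too, but in Cav1-null mice Pdgfra (5.30) and Mbp (5.29) came above Olig2 (5.15 CPM per kb).

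Genes were compared between days and strains with edgeR's quasi-likelihood test over all genes that passed a filter on low counts, with a call where the p adjusted by Benjamini-Hochberg was under 0.05. All 9 genes passed the filter in each of the 16 comparisons. From d12 to d15 (the early phase), 3 of the 9 genes rose and none fell in AKR/J, where 28.9% of all tested genes were called and 14.8% were higher and called. In C57BL/6J 4 rose and 1 fell, against 14.9% of all genes called, 7.08% higher and 7.80% lower. In Cav1-null mice 2 rose and 1 fell, against 23.4% called, 11.6% higher and 11.8% lower. The median log2 fold change of the 9 genes was 0.83, 0.96 and 0.08 in the order of these strains, and that of all tested genes 0.02, -0.04 and -0.01. In C57BL/6J none of the 9 was called without d15 replicate 1, 2 or 3, where at most 0.0303% of all genes were called, and 1 was called without d12 replicate 1 (1.67% of all), while the log2 fold changes with 1 library left out lay at 2.13 to 2.84 for Olig1, 1.79 to 2.15 for Sox10, 1.23 to 2.13 for Cspg4, 1.89 to 2.52 for Gpr17 and -0.95 to -0.74 for Nkx2-2. The count of AKR/J was 1 without d12 replicate 3 (18.1% of all genes called) or d15 replicate 2 (21.7%), 2 without d12 replicate 1 (18.1%) or d15 replicate 3 (12.4%), and 5 without d12 replicate 2 (43.5%). That of Cav1-null mice was 3 without d12 replicate 2, 2 without d15 replicate 2 or 3, and 5 (3 higher, 2 lower) without d12 replicate 3 (35.9% of all genes called), which gave Olig2 as lower and Cspg4 as higher. For the other refits of Cav1-null mice the share of all genes is not given here, so their counts are not read as results about the 9.

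From d15 to d17 (the late phase), 7 of the 9 genes rose in Cav1-null mice, where 27.3% of all tested genes were called and 14.5% were higher and called. In AKR/J 2 of the 9 rose, against 22.1% called and 11.6% higher, and in C57BL/6J 1 rose, against 13.0% called and 7.46% higher. None of the 9 fell in any strain, while 10.4% (AKR/J), 5.58% (C57BL/6J) and 12.8% (Cav1-null) of all genes were lower and called. The median log2 fold change of the 9 genes was 0.98 in Cav1-null mice, 0.22 in AKR/J and 0.24 in C57BL/6J, and that of all tested genes lay between -0.01 and 0.03. The 7 genes of Cav1-null mice were Olig1, Olig2, Sox10, Pdgfra, Cspg4, Gpr17 and Mbp, and the count was 7 without any 1 of the 6 libraries, but 2 (Olig1 and Gpr17) with all 27 libraries in 1 model, where 3.56% of all genes were called. The log2 fold changes of the other 5 in that model were 0.82 for Olig2, 1.15 for Pdgfra, 1.01 for Sox10, 0.98 for Cspg4 and 0.70 for Mbp (edgeR adjusted p = 0.0503 for Mbp to 0.389 for Sox10). In C57BL/6J no gene of the 9 was called without d15 replicate 1, 2 or 3 or d17 replicate 3, and 2 were called without d17 replicate 1 (Gpr17 higher, Cspg4 lower) or d17 replicate 2 (Gpr17 and Olig1 higher). The shares of all genes called in these refits of C57BL/6J are not given here. A loss of calls among the 9 thus cannot be told from a loss over all genes. Cspg4 was -0.02 with all libraries of C57BL/6J and -0.79 (edgeR adjusted p = 0.0264) without d17 replicate 1. In AKR/J 4 were called without d15 replicate 2 (23.3% of all genes), among them Cspg4 at 0.95 (edgeR adjusted p = 0.00913), which was 0.19 with it.

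**Figure D2:**
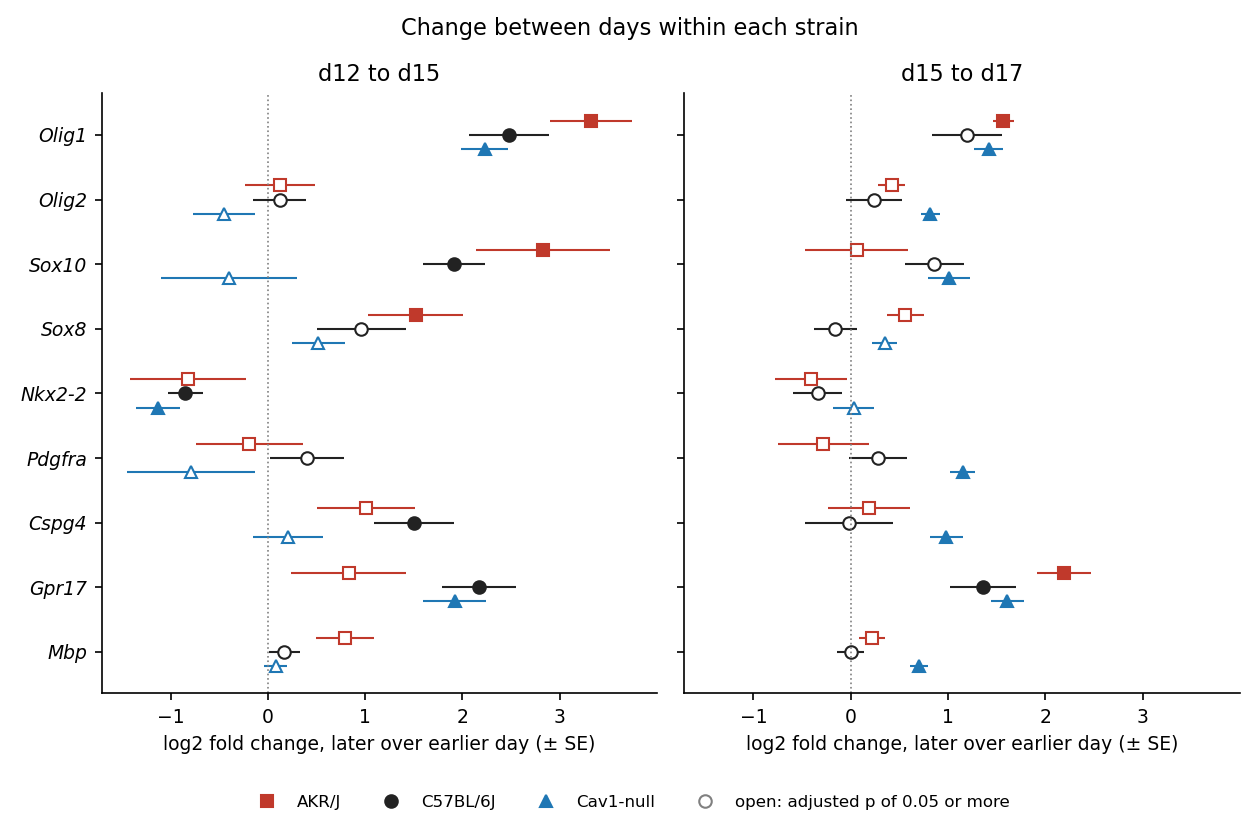
Log2 fold change between days for the 9 genes in each strain (later over earlier day, bars ± SE), with filled symbols for an adjusted p under 0.05 and open symbols otherwise. In the late phase 7 of 9 symbols of Cav1-null mice are filled, against 2 in AKR/J and 1 in C57BL/6J.

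Olig1 and Olig2 code for related helix-loop-helix transcription factors and lie on the plus strand of chromosome 16 (GRCm39), Olig2 from 91019435 to 91025567 and Olig1 from 91066660 to 91068821, with 41092 bp between them. Olig2 acts earlier, in the choice of ventral progenitors, and Olig1 acts later, in the maturation of the lineage. On d12, Olig1 was 1.36, 0.461 and 0.813 CPM in AKR/J, 7.64, 6.28 and 2.35 CPM in C57BL/6J and 2.31, 2.60 and 3.65 CPM in Cav1-null mice. It was 8.67, 8.80 and 9.66 CPM on d15 and 25.2, 27.8 and 26.6 CPM on d17 in AKR/J. The days of AKR/J did not overlap, and the log2 fold change was 3.32 (SE 0.42, edgeR adjusted p = 0.00193) in the early and 1.57 (SE 0.11, adjusted p = 0.000444) in the late phase.

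In Cav1-null mice, Olig1 was 15.4, 14.3 and 10.8 CPM on d15 and 28.9, 39.3 and 39.7 CPM on d17, again without overlap between days (2.23, SE 0.24, edgeR adjusted p = 0.000613, and 1.42, SE 0.15, adjusted p = 1.51e-05). In C57BL/6J it was 23.7, 30.2 and 39.9 CPM on d15 and 94.4, 35.3 and 75.7 CPM on d17. Its early rise of 2.48 (SE 0.41, edgeR adjusted p = 0.0204) was called and the late change of 1.20 (SE 0.36, adjusted p = 0.0666) was not. The value of d17 replicate 2 lay within the range of d15. The late change was called without that library (1.52, edgeR adjusted p = 0.00907), and with it under library sizes alone, no filter on low counts, 1 model of all 27 libraries and the DESeq2 Wald test.

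Olig2 had another time course. In AKR/J it was 17.6, 9.11 and 6.70 CPM on d12, 12.8, 10.6 and 14.1 CPM on d15 and 15.5, 15.9 and 18.2 CPM on d17, and neither change passed the threshold (0.12, SE 0.36, and 0.42, SE 0.14, edgeR adjusted p = 0.834 and 0.0649). In C57BL/6J it was 31.8, 24.6 and 13.8, then 24.6, 25.7 and 28.5, then 41.0, 17.1 and 30.6 CPM, and the days overlapped (edgeR adjusted p = 0.785 and 0.597). In Cav1-null mice it was 17.0, 21.6 and 7.20 CPM on d12, 10.5 to 11.7 CPM on d15 and 18.8, 19.6 and 20.2 CPM on d17. Its rise from d15 to d17 in Cav1-null mice was 0.82 (SE 0.10, edgeR adjusted p = 7.37e-05), with no overlap of the days. Without Cav1-null d12 replicate 3, the lowest of its group for Olig2, the early change was -0.79 (edgeR adjusted p = 0.000227).

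The reads of Olig1 for each read of Olig2 give a ratio within a library that no scaling of libraries touches, and it was higher on each later day in each strain. The ratio was 0.0505 to 0.121 on d12, 0.680 to 0.832 on d15 and 1.47 to 1.75 on d17 in AKR/J. It was 0.170 to 0.255, 0.965 to 1.40 and 2.07 to 2.47 in C57BL/6J, and 0.121 to 0.507, 1.03 to 1.32 and 1.54 to 2.01 in Cav1-null mice. The 3 days did not overlap in any strain. On each day all 3 libraries of C57BL/6J lay above all 3 of AKR/J, and the highest ratio of d12 was that of Cav1-null d12 replicate 3. The counts of both genes could hold reads of RNA genes on the opposite strand, since the counting of strands is not stated, and the low counts of d12 are the most exposed. Gm41492, which overlaps both genes, had 0 to 12 reads per library and Gm15966, which overlaps Olig1, 0 to 8, while Olig1 had 33, 14 and 16 reads in AKR/J on d12. Gm49614, which overlaps Olig2, had 0 to 30 reads, against 132 to 1238 for Olig2.

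**Figure D3:**
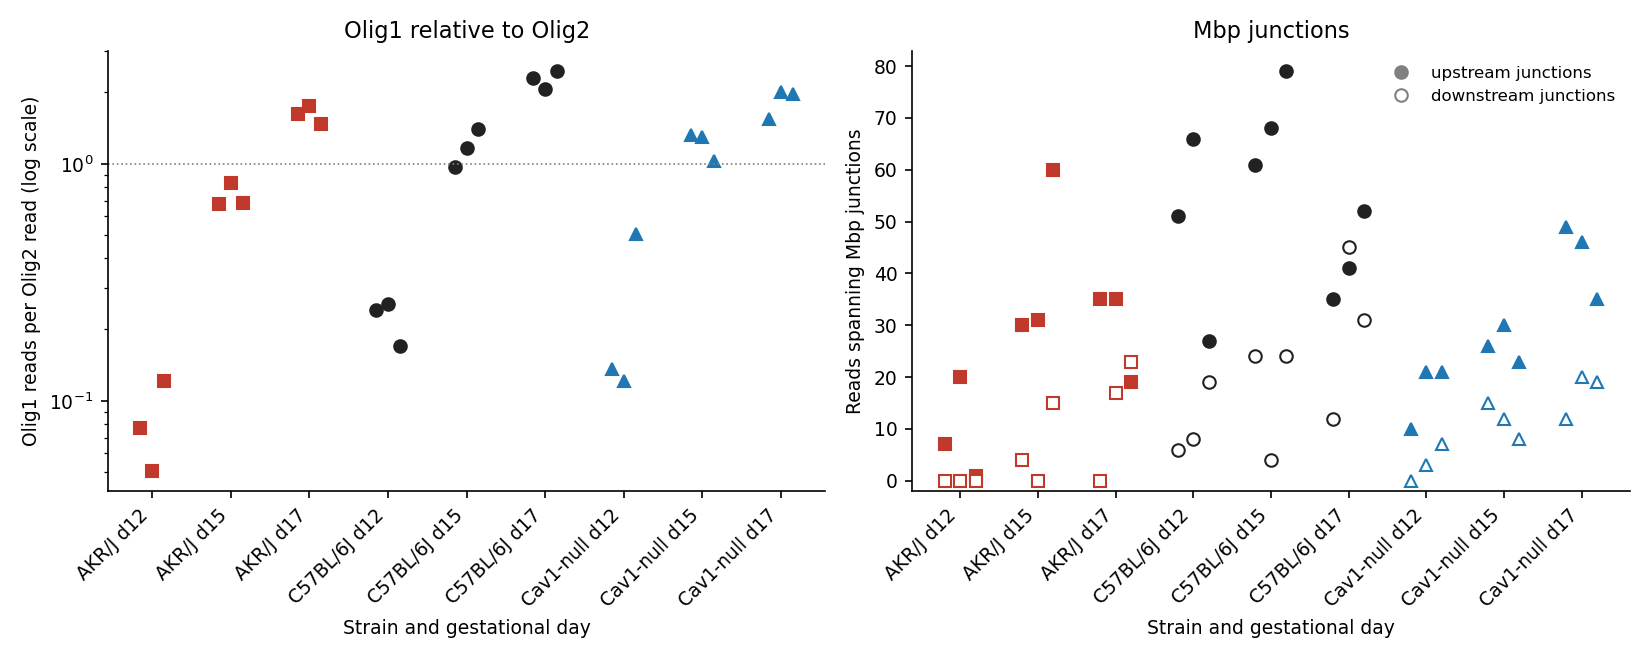
Left, reads of Olig1 per read of Olig2 in each library (log scale, dotted line at 1), and right, reads spanning Mbp junctions upstream (filled) and downstream (open) of the exon that opens the classic Mbp transcripts. The ratio was higher on each later day in each strain, with 1.47 to 2.47 on d17, and downstream Mbp reads exceeded upstream reads in 2 of 27 libraries, both of d17.

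Promoter sequences of 5 of the 9 genes (Olig2, Pdgfra, Cspg4, Nkx2-2 and Sox8) were in the RefSeq table for GRCm38.p6. Those of Olig2, Cspg4 and Nkx2-2 are shown because these genes stand for the 3 courses seen, near level, rising and falling from d12 to d15 in C57BL/6J. Each is the 250 bases before the annotated start, 5′ to 3′ on the strand of the gene, at chr16:91225300-91225549 (plus strand), chr9:56864854-56865103 (plus strand) and chr2:147186403-147186652 (minus strand). Capitals mark matches to 3 motifs searched on both strands, which do not overlap one another: the SOX motifs ACAAAG and ACAATG, and the E-boxes CAGCTG and CATCTG, a type bound by helix-loop-helix factors.
Olig2: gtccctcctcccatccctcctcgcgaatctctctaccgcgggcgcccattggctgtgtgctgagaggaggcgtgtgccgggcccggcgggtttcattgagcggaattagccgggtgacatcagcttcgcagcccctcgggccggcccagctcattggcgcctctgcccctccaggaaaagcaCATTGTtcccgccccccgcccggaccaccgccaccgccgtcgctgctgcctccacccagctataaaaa
Cspg4: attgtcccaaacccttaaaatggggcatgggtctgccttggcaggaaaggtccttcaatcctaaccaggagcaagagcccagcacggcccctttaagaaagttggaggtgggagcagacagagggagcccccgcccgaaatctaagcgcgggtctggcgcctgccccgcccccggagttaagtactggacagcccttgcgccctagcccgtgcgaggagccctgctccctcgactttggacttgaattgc
Nkx2-2: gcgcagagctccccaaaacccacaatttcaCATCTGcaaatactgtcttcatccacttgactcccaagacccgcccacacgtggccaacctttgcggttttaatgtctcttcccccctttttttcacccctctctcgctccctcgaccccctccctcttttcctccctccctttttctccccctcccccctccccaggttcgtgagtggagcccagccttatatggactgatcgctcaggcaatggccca
Olig2 held 1 SOX match, read as CATTGT on this strand, Nkx2-2 held 1 CATCTG match, and Cspg4 held none of the motifs. Pdgfra held 1 CATCTG match and Sox8 none. Over 32851 promoter windows of this length, 25.2% held a SOX match, 13% CAGCTG and 14.4% CATCTG. The GC content of the windows was 66.8% in Olig2, 60.4% in Cspg4 and 56.4% in Nkx2-2.

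Sox10, a transcription factor needed for the survival and maturation of oligodendrocytes, lies on the minus strand of chromosome 15 (79039108 to 79049469). It was 0.742, 0.263 and 0.406 CPM on d12, 1.32, 6.51 and 2.59 CPM on d15 and 2.46, 3.76 and 4.57 CPM on d17 in AKR/J. In C57BL/6J it was 1.20, 1.89 and 1.14, then 6.29, 3.69 and 6.37, then 12.7, 7.52 and 8.21 CPM, and the libraries of different days did not overlap. In Cav1-null mice it was 1.96, 0.581 and 6.85 CPM on d12, 1.88, 3.13 and 2.20 CPM on d15 and 4.51, 5.32 and 4.74 CPM on d17. Sox10 rose between d12 and d15 in AKR/J (2.83, SE 0.69, edgeR adjusted p = 0.0179) and C57BL/6J (1.91, SE 0.32, adjusted p = 0.0202) and between d15 and d17 in Cav1-null mice (1.01, SE 0.22, adjusted p = 0.00386). The highest libraries of AKR/J d15 and Cav1-null d12 were replicates 2 and 3, the libraries with the high connective tissue genes, and the early rise of AKR/J was not called without d15 replicate 2 or d12 replicate 3. The sum of 11 genes of Schwann cells and neural crest did not single out the same libraries, with 140, 162 and 260 CPM in AKR/J d15 replicates 1 to 3 and 126, 154 and 164 CPM in those of Cav1-null d12. Cdh19, a gene of Schwann cell precursors, had 56 reads in AKR/J d15 replicate 2 and 83 in Cav1-null d12 replicate 3, against 7 to 12 in the other libraries of these groups. Foxd3, of early neural crest, had 73 reads in Cav1-null d12 replicate 3, against 0 and 3, but was highest in AKR/J d15 replicate 3, with 65 reads against 37 in replicate 2. The part of these cells in the values of Sox10 was not tested.

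Sox8, a close relative of Sox10 with which it overlaps in function, lies on the minus strand of chromosome 17 (25784634 to 25789726). In AKR/J it was 1.22 to 5.17 CPM on d12, 10.1 ± 2.43 CPM (SD, n = 3) on d15 and 14.7 ± 1.25 CPM on d17. The values of C57BL/6J were 12.0 ± 7.05, 24.0 ± 2.43 and 15.3 to 26.4 CPM, and those of Cav1-null mice 8.69 ± 3.17, 12.4 ± 1.55 and 15.8 ± 1.79 CPM. Its rise was called between d12 and d15 in AKR/J (1.52, SE 0.49, edgeR adjusted p = 0.0483). That call is close to the threshold and was lost with RLE size factors, with library sizes alone and without any 1 of 5 of the 6 libraries. With the replicate number as a block, 1 of the 9 genes was called in this comparison, against 3 without the block.

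Nkx2-2, a homeodomain factor of the most ventral progenitors that returns in maturing oligodendrocytes, lies on the minus strand of chromosome 2 (147019466 to 147036163). It fell from 12.6 ± 1.44 to 7.22 ± 1.09 CPM between d12 and d15 in C57BL/6J (log2 fold change -0.85, SE 0.18, edgeR adjusted p = 0.0295) and from 8.09 ± 2.03 to 3.69 ± 0.579 CPM in Cav1-null mice (-1.13, SE 0.23, adjusted p = 0.00994). In AKR/J it was 8.53, 2.66 and 14.1 CPM on d12 and 3.58, 2.99 and 8.15 CPM on d15, and this spread left a change of -0.82 (SE 0.60) uncalled. On d17 it was 5.44 ± 1.37 CPM in C57BL/6J, 3.63 ± 0.690 CPM in AKR/J and 3.75 ± 0.644 CPM in Cav1-null mice. Nkx2-2 was thus called as falling in 2 comparisons and as rising in none, both calls were lost with all 27 libraries in 1 model, at -0.80 in C57BL/6J (edgeR adjusted p = 0.175) and -1.13 in Cav1-null mice (adjusted p = 0.0650), and its antisense gene Nkx2-2os had at most 6 reads in a library.

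Pdgfra, the receptor through which platelet-derived growth factor drives the division of precursors, lies on the plus strand of chromosome 5 (75311994 to 75358876). It was 50.4, 19.4 and 34.1 CPM on d12, 14.9, 61.4 and 17.8 CPM on d15 and 24.3, 25.0 and 28.1 CPM on d17 in AKR/J. In C57BL/6J it was 22.1, 27.6 and 53.2, then 63.8, 31.9 and 45.4, then 73.5, 41.8 and 48.8 CPM. Cav1-null mice had 16.9, 6.64 and 65.6, then 17.0, 21.3 and 14.1, then 43.0, 36.1 and 37.2 CPM. In each group except AKR/J d17, the library with the highest Pdgfra was also the one with the highest sum of the connective tissue genes. The part of these cells in the values of Pdgfra was not tested.

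Only the late phase of Cav1-null mice gave a call for Pdgfra in the 6 comparisons of days, a rise of 1.15 (SE 0.13, edgeR adjusted p = 3.30e-05) between libraries whose connective tissue genes summed to 93.2 to 186 CPM on d15 and 85.0 to 213 CPM on d17. Between d15 and d17 in AKR/J the change was -0.28 (SE 0.47, edgeR adjusted p = 0.714). Without AKR/J d15 replicate 2 it was 0.68 (adjusted p = 0.00602), so that 1 library turned the direction of this value.

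Cspg4, the NG2 proteoglycan of precursors and pericytes, lies on the plus strand of chromosome 9 (56772317 to 56807187). It was 2.81 ± 0.812, 5.83 ± 4.04 and 6.64 ± 0.613 CPM (SD, n = 3) on d12, d15 and d17 in AKR/J, with 10.5 CPM in d15 replicate 2 against 3.20 and 3.80 CPM. In C57BL/6J it was 7.17 ± 4.66, 20.7 ± 4.31 and 19.5 ± 13.9 CPM, with 35.5 CPM in d17 replicate 1 against 11.8 and 11.2 CPM. In Cav1-null mice it was 4.28 ± 2.11, 4.97 ± 1.20 and 9.81 ± 0.0766 CPM. Cspg4 rose 2.84-fold between d12 and d15 in C57BL/6J (edgeR adjusted p = 0.0495) and between d15 and d17 in Cav1-null mice (0.98, SE 0.17, adjusted p = 0.000899). The sum of 10 genes of pericytes and smooth muscle was 237 to 384 and 283 to 354 CPM on these days in C57BL/6J, and 185 to 200 and 215 to 244 CPM in Cav1-null mice. Single genes of this list differed. In C57BL/6J d17 replicate 1, Pdgfrb was 42.3 CPM against 12.2 and 15.1 CPM, and Rgs5 92.2 CPM against 154 and 120 CPM. In AKR/J d15 replicate 2, Pdgfrb was 26.4 CPM against 16.8 and 18.8 CPM, and Rgs5 103 CPM against 105 and 94.6 CPM. The other genes of the list are not given by library here. The part of pericytes in Cspg4 was not tested.

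**Figure D4:**
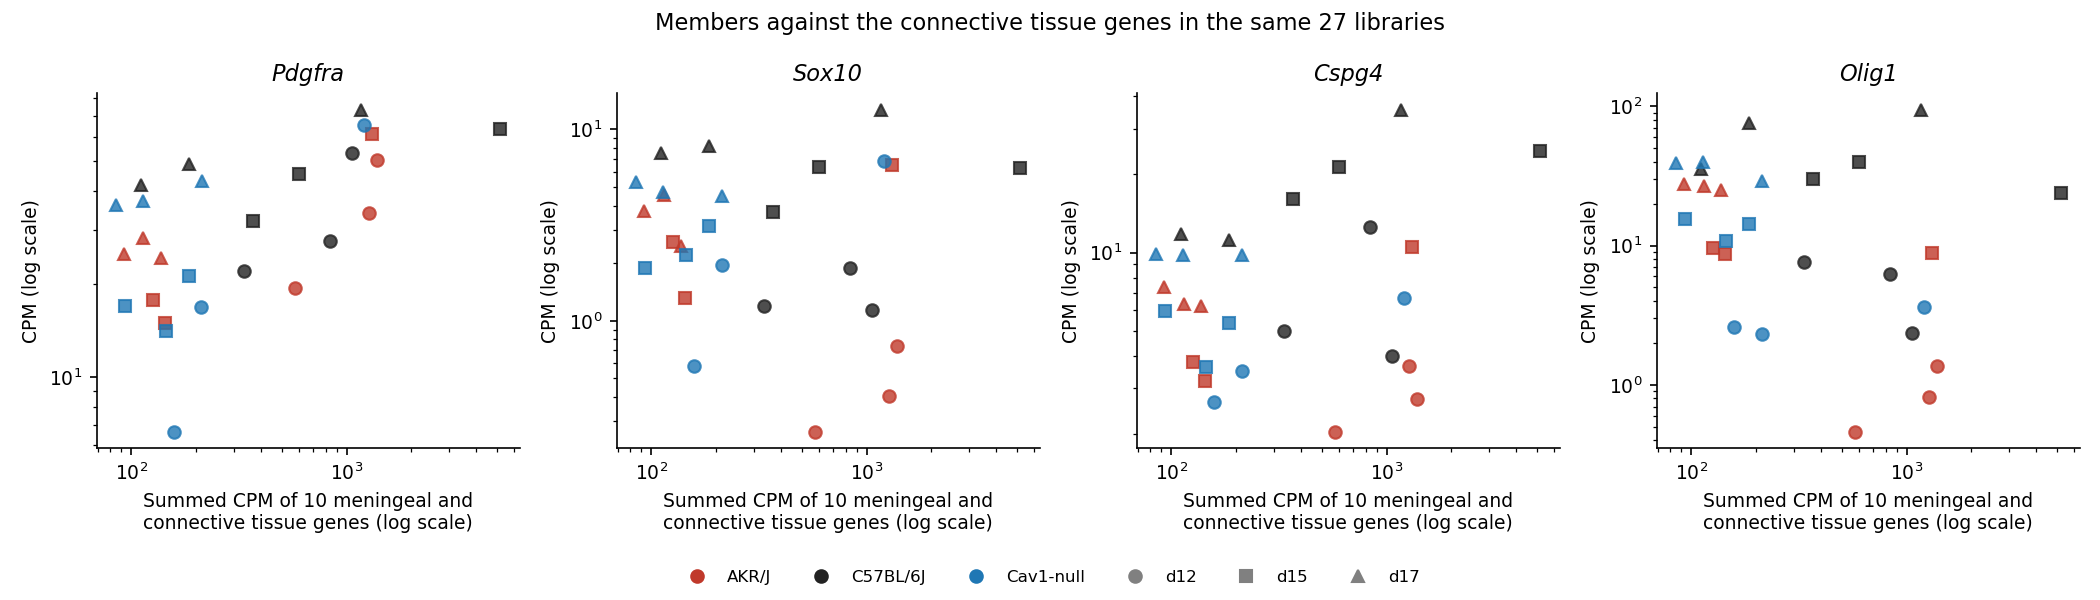
CPM of Pdgfra, Sox10, Cspg4 and Olig1 against the summed CPM of 10 meningeal and connective tissue genes in the same library (both axes log scale), with color for strain and shape for day. AKR/J d15 replicate 2 (1316 CPM on the horizontal axis) and Cav1-null d12 replicate 3 (1207 CPM) are the highest of their groups for Pdgfra, Sox10 and Cspg4, and Olig1 lies between its other replicates in the first (8.80 CPM) and is the highest of its group in the second (3.65 CPM against 2.31 and 2.60 CPM).

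Gpr17, a receptor of committed precursors that restrains their maturation, lies on the minus strand of chromosome 18 (32076050 to 32082888). It was 0.494, 1.45 and 0.356 CPM on d12, 1.07, 1.59 and 1.66 CPM on d15 and 4.89, 6.91 and 7.68 CPM on d17 in AKR/J. In C57BL/6J it was 1.07, 1.55 and 2.29, then 5.16, 7.23 and 10.6, then 24.7, 12.5 and 19.2 CPM, without overlap between days. Cav1-null mice had 1.03, 0.551 and 1.11, then 3.80, 3.45 and 3.02, then 8.49 to 11.8 CPM, again without overlap. Its late rise was called in AKR/J (2.19, SE 0.28, edgeR adjusted p = 0.00173), C57BL/6J (1.36, SE 0.34, adjusted p = 0.0396) and Cav1-null mice (1.61, SE 0.17, adjusted p = 1.72e-05).

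The early rise of Gpr17 was called in C57BL/6J (2.17, SE 0.38, edgeR adjusted p = 0.0214) and Cav1-null mice (1.92, SE 0.32, adjusted p = 0.00408). In AKR/J it was 0.83 (SE 0.59, adjusted p = 0.325), and the difference between AKR/J and C57BL/6J in this phase, -1.42 (SE 0.69), did not pass its own test (edgeR adjusted p = 0.341). Gpr17 lies within Lims2, a gene of the opposite strand with 8 to 96 reads per library, so that reads of one could be counted for the other where strands were not told apart. On d17 Gpr17 had 151 to 745 reads, above the highest count of Lims2, whereas on d12 it had 7 to 72.

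Mbp lies on the plus strand of chromosome 18 (82493207 to 82603763) and gives rise to classic transcripts for the myelin proteins and to golli transcripts, which start far upstream and are also made in neurons. It was 7.54, 16.2 and 10.7 CPM on d12, 18.5, 18.3 and 25.0 CPM on d15 and 23.2, 22.8 and 25.2 CPM on d17 in AKR/J. In C57BL/6J it was 26.3, 37.7 and 24.4, then 31.7, 33.9 and 36.9, then 36.6, 28.4 and 32.8 CPM, with log2 fold changes of 0.17 (SE 0.16) and -0.00 (SE 0.14). In Cav1-null mice it was 17.9, 21.1 and 16.7, then 19.5, 20.2 and 19.2, then 31.1, 33.8 and 30.5 CPM. Only the late rise of Cav1-null mice was called (0.70, SE 0.09, edgeR adjusted p = 8.10e-05), and this call was lost with all 27 libraries in 1 model, at 0.70 again (adjusted p = 0.0503).

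Gene counts do not tell the starts of Mbp apart, and reads across splice junctions do so in part. The junction table held 2 junctions upstream of the exon in which the classic transcripts begin, from 82518928 to 82540174 and from 82540263 to 82572444 (intron positions, GRCm39), the second of which the file lists under the pseudogene Rpl21-ps8. It held 3 junctions downstream of that exon, which golli and classic transcripts can share, and none that belongs to the classic start alone. Upstream junctions held 28 of 28 reads in AKR/J on d12 (100%, exact 95% interval 87.7 to 100), 121 of 140 on d15 (86.4%, 79.6 to 91.6) and 89 of 129 on d17 (69.0%, 60.3 to 76.8).

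In C57BL/6J the upstream share was 81.4% on d12 (74.8 to 86.8), 80.0% on d15 (74.6 to 84.7) and 59.3% on d17 (52.4 to 65.9). The share of Cav1-null mice was 83.9% (72.3 to 92.0), 69.3% (60.0 to 77.6) and 71.8% (64.7 to 78.2). The lowest share was thus that of C57BL/6J on d17, although single libraries ranged from 47.7% to 74.5% there, and from 45.2% to 100% in AKR/J on d17. The intervals cover counting error only, and where a junction is listed at 0, its reads may have been removed by the authors. No test was made. Of the other genes, the table held 6 junctions of Pdgfra, 2 of Cspg4, 1 of Sox10 and 1 of Sox8, and none was listed for Olig1, Olig2, Nkx2-2 and Gpr17.

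Between strains on the same day, the 9 genes were lower in the short-lived strains wherever they were called. On d15, all 9 were lower in Cav1-null mice than in C57BL/6J, against 31.8% of all tested genes lower and called and 58.6% called in either direction. The log2 fold changes ran from -0.76 for Mbp (SE 0.08, edgeR adjusted p = 2.46e-05) to -2.02 for Cspg4 (SE 0.21, adjusted p = 1.69e-05), with -1.17 for Olig1 and -1.21 for Olig2. Their median was -1.14 and that of all tested genes 0.03. All 9 calls held without any 1 of the 6 libraries, and 5 held with all 27 libraries in 1 model, where 35.1% of all genes were called and 21.3% were lower and called. The 4 genes not called there were Pdgfra (-1.43), Sox10 (-1.18), Nkx2-2 (-0.97) and Sox8 (-0.96), with edgeR adjusted p = 0.0563 to 0.117.

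In AKR/J on d15, 6 of the 9 genes were lower than in C57BL/6J, against 22.3% of all tested genes lower and called and 41.1% called in either direction. They were Gpr17 (-2.34, SE 0.32, edgeR adjusted p = 0.00125), Cspg4 (-1.74, SE 0.46), Olig1 (-1.72, SE 0.19), Sox8 (-1.18, SE 0.18), Olig2 (-1.01, SE 0.12) and Mbp (-0.66, SE 0.13). Gpr17 was 5.16 to 10.6 CPM in C57BL/6J, and the 3 AKR/J libraries lay at 1.07 to 1.66 CPM. Pdgfra (-0.49, SE 0.55), Sox10 (-0.56, SE 0.55) and Nkx2-2 (-0.50, SE 0.36) were not called. Without AKR/J d15 replicate 2, the library with the high connective tissue genes, 8 were called, with Pdgfra at -1.46 and Sox10 at -1.42 (edgeR adjusted p = 0.00696 and 0.0244). Without C57BL/6J d15 replicate 1, which had the highest connective tissue genes of the 27 libraries, 5 were called, and also without replicate 3. Without AKR/J d15 replicate 3, 1 of the libraries that went against the label, 7 were called, with Nkx2-2 added at -1.08 (edgeR adjusted p = 0.00919). The shares of all genes called in these refits are not given here, so shifts of the 9 are not told apart from shifts over all genes. The comparisons of AKR/J and Cav1-null mice on d15 share their C57BL/6J libraries.

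On d12, Olig1 (-2.49, SE 0.58, edgeR adjusted p = 0.0178) and Mbp (-1.21, SE 0.31, adjusted p = 0.0245) were lower in AKR/J than in C57BL/6J, 2 of the 9 genes against 14.1% of all tested genes lower and called and 28.6% called. With the replicate number as a block, 4 were called, and Olig2 and Sox8 were the genes added, but the share of all genes called in that fit is not given here. None was called without AKR/J d12 replicate 3, C57BL/6J d12 replicate 1 or C57BL/6J d12 replicate 2, 1 without AKR/J d12 replicate 1, 3 without AKR/J d12 replicate 2 (39.9% of all genes called) and 4 without C57BL/6J d12 replicate 3 (28.1%). The share of all genes is given only for the refits that gained calls. Where calls were lost, a loss among the 9 cannot be told from a loss over all genes. The AKR/J libraries of d12 are those with the high erythroid genes, and the part of blood cells in these values was not tested. Between Cav1-null mice and C57BL/6J on d12, edgeR called none of the 9 and none of 19475 genes in all (0%). At an unadjusted p under 0.05 it gave 2 of the 9 and 22.1% of all tested genes, and the DESeq2 Wald test called 1 of the 7 it kept and 15.1% of the genes it kept.

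On d17 none of the 9 genes was called in either strain, against 0.742% of all tested genes called in AKR/J (0.381% higher, 0.361% lower) and 0.0491% in Cav1-null mice (0.00491% higher, 0.0442% lower). These comparisons share their 3 C57BL/6J libraries. The median log2 fold change of the 9 genes was -1.10 in AKR/J and -0.60 in Cav1-null mice, against -0.04 and -0.00 for all tested genes. In AKR/J 8 of the 9, and 21.2% of all tested genes, had an unadjusted p under 0.05, and the DESeq2 Wald test called 5 of the 9 and 7.12% of all. In Cav1-null mice 5 of the 9 and 7.55% of all tested genes had an unadjusted p under 0.05, and the DESeq2 Wald test called none of the 9 and 0.236% of all. The nearest to the threshold in AKR/J were Gpr17 (-1.55, SE 0.28, edgeR adjusted p = 0.0590) and Pdgfra (-1.10, SE 0.21, adjusted p = 0.0751). C57BL/6J d17 replicate 2 was the lowest library of its group for Olig1, Olig2, Sox10, Sox8, Nkx2-2, Pdgfra, Gpr17 and Mbp, and without it all 9 genes were lower in AKR/J, where 26.4% of all tested genes were then called and 15.1% were lower and called. In Cav1-null mice 5 were lower without it (Olig1, Olig2, Pdgfra, Sox10 and Gpr17), against 13.6% called and 9.94% lower. Without C57BL/6J d17 replicate 1, 2 of the 9 were called in AKR/J (1.26% of all) and none in Cav1-null mice (0.0755%).

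**Figure D5:**
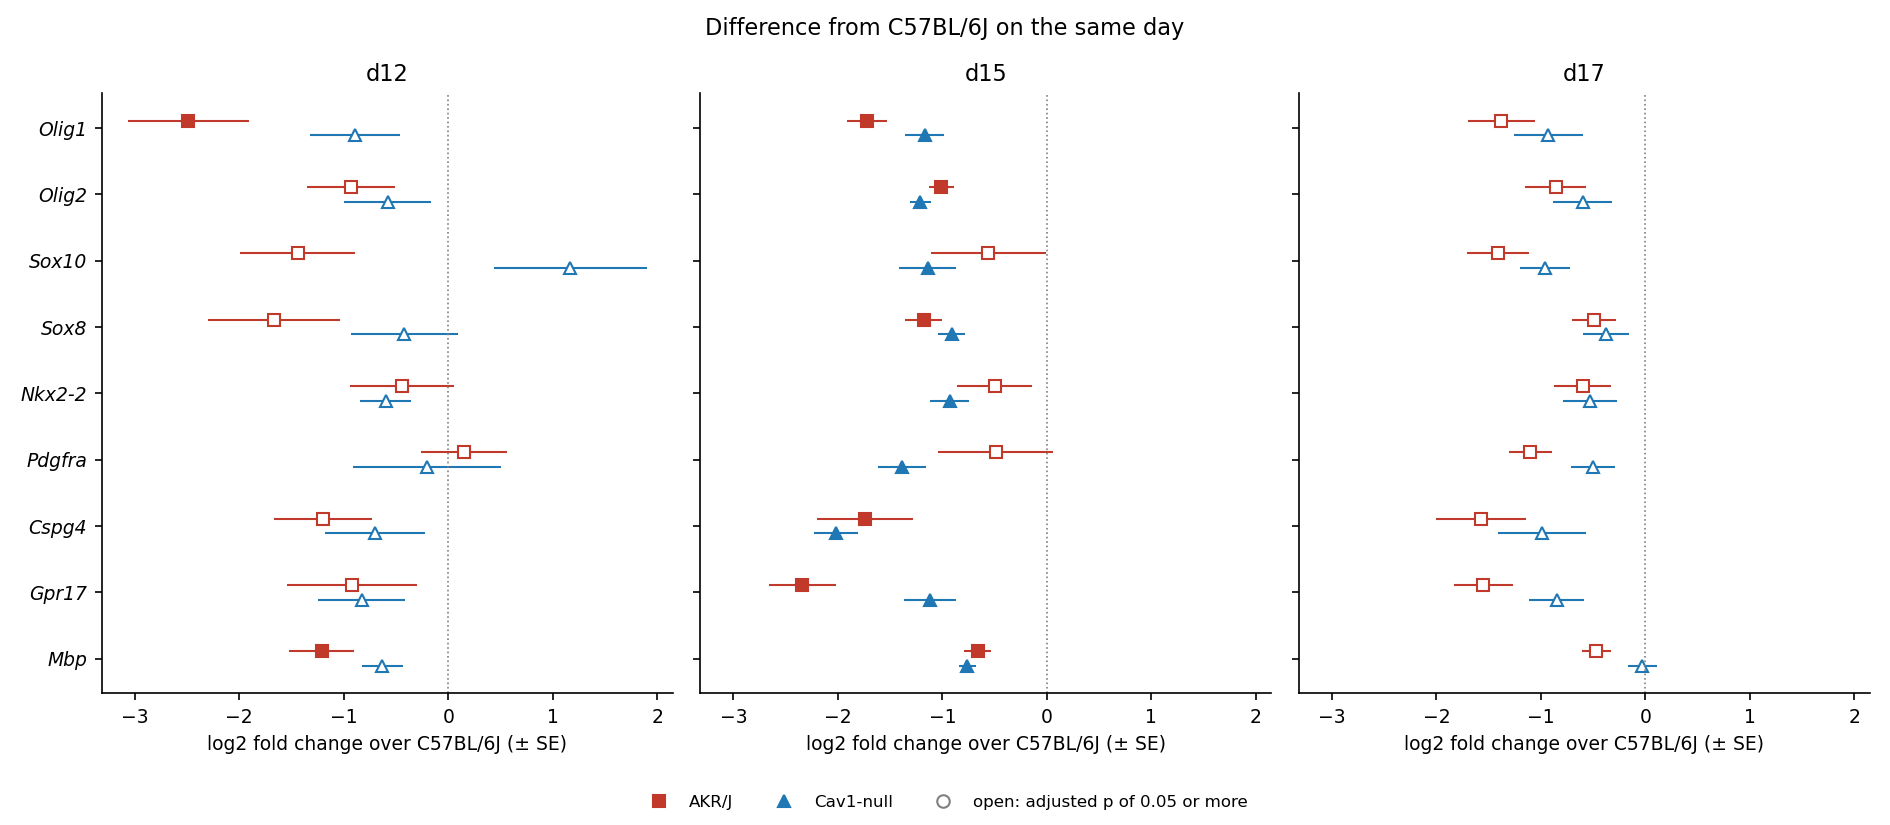
Log2 fold change of the 9 genes in AKR/J and Cav1-null mice over C57BL/6J on each day (bars ± SE), with filled symbols for an adjusted p under 0.05. On d15, all 9 symbols of Cav1-null mice and 6 of AKR/J are filled and left of 0, and on d17 all symbols are open. Both strains are set against the same 3 C57BL/6J libraries of a day.

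The difference in the change between days was fitted as an interaction of strain with day, over 12 libraries. None of the 9 genes was called against C57BL/6J between d12 and d15 in AKR/J (0.0711% of all genes called, 0.00474% higher and 0.0664% lower), the late phase of AKR/J (0.00468%), the early phase of Cav1-null mice (0.00472%) or the late phase of Cav1-null mice (0.252%, with 0.0327% higher and 0.219% lower). The counts at an unadjusted p under 0.05 were 0, 1, 2 and 2 of the 9, against 16.3%, 7.57%, 15.0% and 21.9% of all tested genes. The DESeq2 Wald test called 0, 0, 0 and 1 of the 9, against 5.70%, 0.211%, 3.73% and 6.71% of all. With library sizes alone, the first of these comparisons gave 89 genes higher and 18 lower over all genes, against 1 and 14 with TMM scaling, and none of the 9 was called. The smallest adjusted p was that of Mbp between d15 and d17 in Cav1-null mice, where the log2 change exceeded that of C57BL/6J by 0.67 (SE 0.16, edgeR adjusted p = 0.0654). Sox10 differed by -2.30 (SE 0.87, edgeR adjusted p = 0.261) between d12 and d15 in Cav1-null mice. The 7 late rises of Cav1-null mice and the 1 of C57BL/6J are therefore not shown to differ, although 5 genes (Olig2, Pdgfra, Cspg4, Mbp and Sox8) passed this test when C57BL/6J d17 replicate 1 was left out, where 26.1% of all genes did. Without C57BL/6J d12 replicate 2, Cspg4 passed between d12 and d15 in Cav1-null mice, and 7.30% of all genes.

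Lists of other genes of the lineage are given against the shares of all tested genes called as higher and as lower. From d12 to d15 these were 14.8% and 2800 of 19935 genes in AKR/J, 7.08% and 7.80% in C57BL/6J, and 11.6% and 11.8% in Cav1-null mice. From d15 to d17 they were 11.6% and 10.4%, 7.46% and 5.58%, and 14.5% and 12.8%. A list of 20 held other genes of the precursor stage. In the early phase, 6 of 17 tested rose and 1 fell in AKR/J, 5 of 18 rose in C57BL/6J, and 5 of 17 rose and 4 fell in Cav1-null mice. In the late phase 7 of 17 rose and 3 fell, 5 of 19 rose and 4 fell, and 8 of 18 rose and 2 fell in the same order of strains. Lhfpl3 rose in the late phase of all 3 strains, from 7.58 ± 0.493 to 22.0 ± 1.35 CPM in AKR/J (1.55, SE 0.12, edgeR adjusted p = 0.000525), and Scrg1, which was 0.452 ± 0.120 CPM on d12 in Cav1-null mice, rose by 3.10 (SE 0.35) in their early phase. Tnr and Bcan, which code for matrix proteins of the nervous system, rose by 3.81 (SE 0.41) and 4.07 (SE 0.57) between d12 and d15 in AKR/J, from 1.55 ± 0.941 and 1.45 ± 0.995 CPM on d12. Against C57BL/6J, 7 of 16 were lower in AKR/J on d12 (14.1% of all tested genes), 10 of 18 on d15 (22.3%) and none on d17. In Cav1-null mice 12 of 18 were lower (31.8% of all) and 3 higher (26.8%) on d15, and Scrg1 was among the higher ones (1.78, SE 0.29).

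Of 13 genes of committed cells, Myrf, a factor that switches on the myelin genes, fell between d12 and d15 in AKR/J (-1.32, SE 0.37, edgeR adjusted p = 0.0293) and rose between d15 and d17 in Cav1-null mice (1.06, SE 0.26, adjusted p = 0.00870), from 1.42 ± 0.225 to 2.94 ± 0.594 CPM. In that late phase 4 of 11 tested genes of the list rose and none fell, against 14.5% and 12.8% of all, and none of the list was called between d15 and d17 in AKR/J or C57BL/6J. The list gave 2 higher and 3 lower of 12 between d12 and d15 in AKR/J, 1 and 1 of 13 in C57BL/6J and 0 and 2 of 11 in Cav1-null mice, where the shares of all genes were 14.8% and 2800 of 19935, 7.08% and 7.80%, and 11.6% and 11.8%. On d15, 4 of 11 were lower in AKR/J (22.3% of all tested genes) and 6 of 11 in Cav1-null mice (31.8%) than in C57BL/6J, and none was higher.

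Of 18 other myelin genes, 4 of 14 tested rose between d15 and d17 in AKR/J, 4 of 15 in C57BL/6J and 8 of 16 in Cav1-null mice, and none fell, while 11.6%, 7.46% and 14.5% of all genes rose. Omg rose by 1.70 (SE 0.27), to 8.21 ± 1.92 CPM, in AKR/J and by 2.48 (SE 0.21), to 10.9 ± 2.32 CPM, in C57BL/6J (edgeR adjusted p = 0.00420 and 0.00350). Omg codes for a glycoprotein of myelin that neurons also make. Mog, a protein of the outer myelin surface, was already 9.29 ± 0.505 CPM in Cav1-null mice on d12 and rose in the early phase of all 3 strains (1.06 to 1.85). Over the early phase, 4 of 12 rose in AKR/J, 3 of 13 in C57BL/6J and 2 of 14 in Cav1-null mice, where 1 fell, against 14.8%, 7.08% and 11.6% of all genes rising. On d15, 2 of 14 were higher and none lower than in C57BL/6J in AKR/J, where 18.8% of all tested genes were higher and 22.3% lower. Of 14 tested in the other comparison, 7 were higher and 2 lower in the Cav1-null libraries, against 26.8% and 31.8% of all tested genes. Aspa was higher in both (1.59, SE 0.47, and 1.86, SE 0.52, edgeR adjusted p = 0.0294 and 0.0105), and Cldn11, of tight junctions in myelin and in the meninges, was lower in Cav1-null mice (-2.27, SE 0.18, adjusted p = 2.39e-06).

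Among 17 ligands and receptors that act on the lineage, Shh, the ventral patterning signal, fell between d12 and d15 in C57BL/6J (-1.27, SE 0.23, edgeR adjusted p = 0.0232) and Cav1-null mice (-1.77, SE 0.21, adjusted p = 0.000961) and between d15 and d17 in AKR/J (-1.31, SE 0.28, adjusted p = 0.0144). Smo, the transducer of the Shh signal, fell between d15 and d17 in C57BL/6J (-1.28), AKR/J (-1.23) and Cav1-null mice (-0.53), while Pdgfa, the ligand of Pdgfra, rose there by 0.88 (SE 0.19), 0.78 (SE 0.18) and 0.53 (SE 0.11). Over the list, 3 of 17 rose and 2 fell between d12 and d15 in AKR/J, 1 rose and 3 fell in C57BL/6J, and 2 rose and 7 fell in Cav1-null mice, where 11.6% of all genes rose and 11.8% fell. In the late phase 1 rose and 5 fell, 1 rose and 3 fell, and 3 rose and 4 fell, against 10.4%, 5.58% and 12.8% of all genes falling. On d15, 3 of 17 were lower in AKR/J than in C57BL/6J, against 22.3% of all tested genes, and 13 of 17 in Cav1-null mice, against 31.8%, and none was higher. Lingo1 was lower in both (-1.52, SE 0.23, and -1.63, SE 0.09).

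Of 10 inhibitors of differentiation, Hes5, a target of Notch signals, fell between d12 and d15 in AKR/J (-2.06, SE 0.32), C57BL/6J (-1.77, SE 0.26) and Cav1-null mice (-1.44, SE 0.24), from 71.3 ± 18.7 to 17.6 ± 6.80 CPM in AKR/J. Hes1 fell in the late phase of all 3 strains (-1.29, -0.95 and -0.68). Zfp365, which the list holds although it is known to promote the differentiation of oligodendrocytes, rose there by 0.86 to 1.25. Id2 rose between d12 and d15 in Cav1-null mice (1.02, SE 0.12) and was higher on d12 in AKR/J than in C57BL/6J (1.68, SE 0.37, edgeR adjusted p = 0.0152). Over the list, 1, 0 and 2 genes rose and 1, 2 and 5 fell between d12 and d15 (AKR/J, then C57BL/6J, then Cav1-null), and 2, 1 and 1 rose and 3, 2 and 2 fell in the late phase. Zfp365 was the only gene of the list to rise in the late phase of C57BL/6J and of Cav1-null mice, and 1 of the 2 in AKR/J. Of all tested genes 7.80% (C57BL/6J) and 11.8% (Cav1-null) fell between d12 and d15, and 10.4%, 5.58% and 12.8% fell in the late phase. On d15, 2 of 10 were higher and 2 lower in AKR/J than in C57BL/6J, against 18.8% and 22.3% of all tested genes, and in Cav1-null mice 1 was higher and 5 lower, against 26.8% and 31.8%.

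Marker lists of other cells are read against the shares of all tested genes given for the precursor list, and on d15 against 18.8% higher and 22.3% lower than C57BL/6J in AKR/J and 26.8% and 31.8% in the Cav1-null line. Of 10 astrocyte genes, 5 rose and 1 fell between d12 and d15 in AKR/J, 1 rose and 1 fell in C57BL/6J, and none rose and 3 fell in Cav1-null mice. Between d15 and d17, 3 rose and 1 fell in AKR/J, 2 rose and 1 fell in C57BL/6J, and 8 rose and 1 fell in Cav1-null mice. On d15, 5 of them were lower in AKR/J than in C57BL/6J, with sums of 515 to 690 CPM against 799 to 944 CPM, and 7 were lower and 1 higher in Cav1-null mice, at 380 to 430 CPM. Of 10 genes of cycling cells, 8 to 10 fell in each of the 6 comparisons of days. On d15, 5 of them were higher and 1 lower in AKR/J than in C57BL/6J (981 to 1015 CPM against 812 to 988 CPM), and 2 were higher and 6 lower in Cav1-null mice (592 to 643 CPM). On d15, 6 of 10 connective tissue genes were lower in Cav1-null mice (93.2 to 186 CPM against 367 to 5186 CPM), and none was called in AKR/J (126 to 1316 CPM). Of the genes of pericytes and smooth muscle, 5 of 10 were lower and 1 higher in AKR/J, and 6 of 9 lower and 2 higher in Cav1-null mice, at 209 to 235 and 185 to 200 CPM against 283 to 354 CPM. Genes of Schwann cells and neural crest summed to 252 to 256 (C57BL/6J), 140 to 260 (AKR/J) and 116 to 129 CPM (Cav1-null) on d15, with 5 of 8 lower in Cav1-null mice, and Pmp2 had at most 3 reads in any library. Genes of hindbrain motor neurons, whose progenitors express Olig2, summed to 51.6 to 69.4, 52.7 to 84.7 and 55.2 to 57.2 CPM on d15 in the same order, with 2 of 7 lower in Cav1-null mice (median -1.07). On d12 they summed to 51.7 to 86.0, 25.2 to 38.7 and 87.4 to 98.6 CPM, and 4 of 7 rose between d12 and d15 in AKR/J (median 2.61). The other calls of this list were 1 lower between d15 and d17 in C57BL/6J, and 1 lower between d12 and d15 and 1 higher between d15 and d17 in Cav1-null mice. On d15, 10 erythroid genes summed to 824 to 1067, 2010 to 3068 and 2908 to 3616 CPM in that order. Genes of trophoblast, decidua and yolk sac reached 2471 CPM in AKR/J d12 replicate 1 and 623 CPM at most elsewhere. Of these 10 genes, 8 were at 0 reads in at least 1 library, so the sums elsewhere do not stand for the whole list. On d12, 6 of 9 tested were higher in AKR/J than in C57BL/6J (median 7.74), against 14.5% of all tested genes. Between d12 and d15 in AKR/J, 8 of 9 fell (median -8.34). The part of these cells in the values of the 9 genes was not tested.

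Over the 27 libraries, the 9 genes did not follow 1 course. Pearson's r of log2 CPM was 0.897 for Olig1 and Gpr17, 0.852 for Olig1 and Sox10 and 0.593 for Olig1 and Olig2. It was 0.00428 for Pdgfra and Sox8 and -0.425 for Nkx2-2 and Gpr17. Among 14187 expressed genes, the closest to Olig1 were Ngef (r = 0.981), Gnai1 (0.98) and Slc6a11 (0.979), those closest to Gpr17 were Slc4a4 (0.947), Adcy1 (0.945) and Arhgap26 (0.942), and those closest to Sox8 were Sh3rf3 (0.981), Dscaml1 (0.978) and Sel1l3 (0.961). Nearest to Sox10 were Col9a3 (0.922), Map3k5 (0.914) and Afap1l2 (0.906), and to Cspg4 Tln2 (0.948), Farp1 (0.936) and Eln (0.934). Pdgfra was closest to Rflnb (0.929), Adamts15 (0.891) and Zfp469 (0.886), and Mbp to Kctd3 (0.952), Wasf3 (0.95) and Akap6 (0.949). Nkx2-2 came with Otub1 (0.893), Foxa1 (0.889) and Gapdh (0.887), and Olig2, at lower values, with Pcdh19 (0.858), Slc35f1 (0.849) and Irs4 (0.84). These values describe libraries that share strains, days and stage, and no test was made.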

How the data were processed

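The authors isolated total RNA from whole fetal brains, purified poly-A RNA, made cDNA with random hexamers, trimmed reads with cutadapt and fastp, and mapped them to GRCm39 with STAR. They deposited unnormalized read counts per Ensembl gene and counts of reads per splice junction and transcript, from 2-pass mapping without junctions of multi-mapped reads, short overhangs or few reads. The counting tool, its strand setting and tool versions are not given in the sources used here. The deposited read totals of 26363697 to 39759702 limit the precision of low counts.

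Libraries were grouped by the labelled strain and day. In R 4.3.3 with edgeR 4.0.16, each comparison was fitted on its 6 libraries, or 12 for interactions, with filterByExpr, TMM scaling, the quasi-likelihood test and Benjamini-Hochberg adjustment over all genes tested. A gene was called at an adjusted p under 0.05. The SE was taken as the size of the log2 change divided by the root of its F statistic. The fits were tested on simulated data. Lengths and positions are from the GRCm39 annotation (exon union), and each Mbp junction was counted once. Plots used matplotlib 3.10.9.

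Named genes are all 9 members, at most 4 called genes with the largest change per list and comparison, the 3 genes with the highest correlation with each member, and Cav1, Xist and 4 Y-linked genes as checks of the labels. Values of Cdh19, Foxd3, Pdgfrb and Rgs5 and of list genes in further comparisons were added after values were seen. The members and lists were chosen with earlier results of these data known. Same-numbered libraries correlated in their deviations above 0.1 in all 3 pairs only for AKR/J against C57BL/6J on d12 (lowest r 0.13). Alternatives were the DESeq2 1.42.0 Wald test, RLE size factors, library sizes alone, no filter on low counts, 1 model of all 27 libraries, a replicate block, each library left out, the longest transcript as length, and junctions counted per transcript.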

Additional observations from a re-analysis of the deposited data

How the results depend on the processing

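Counts are of the 9 genes. The calls over all genes moved with the settings too, and they are given below for the DESeq2 Wald test and for library sizes alone. For the block, the other settings and the libraries left out they are not given in this section. Shifts of the 9 are there not told apart from shifts over all genes. With the replicate number as a block, 1 was called between d12 and d15 in AKR/J (3 without the block), 0 in the early and 2 between d15 and d17 in C57BL/6J (5 and 1), and 4 in AKR/J against C57BL/6J on d12 and on d17 (2 and 0). The block left the other counts within 1.5 times their value, among them 7 between d15 and d17 in Cav1-null mice and 9 on d15. The same numbers did not pair the libraries except for AKR/J against C57BL/6J on d12.

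The DESeq2 Wald test called 4 between d15 and d17 in AKR/J (2 with edgeR), 3 between d15 and d17 in C57BL/6J (1), 4 in AKR/J on d12 (2), 5 in AKR/J on d17 (0), 1 in Cav1-null mice on d12 (0) and 1 for the late change of Cav1-null mice (0). In that order it called 28.3%, 23.1%, 35.3%, 7.12%, 15.1% and 6.71% of the genes it kept. The shares of edgeR were 22.1%, 13.0%, 28.6%, 0.742%, 0% and 0.252%. With library sizes alone the counts were 2 between d15 and d17 in C57BL/6J, 5 in AKR/J on d12 and 2 in AKR/J on d17, and without a filter on counts 2, 5 and 5, and 1 for the late change of Cav1-null mice. Over all genes, library sizes alone called 3067, 4515 (3153 lower) and 190, against 2594, 5529 (2732 lower) and 150 with TMM scaling. In 1 model of all 27 libraries the counts of the 9 were 2 between d15 and d17 in C57BL/6J and of Cav1-null mice (1 and 7), 6 and 2 in AKR/J on d12 and d17, and 1 and 5 in Cav1-null mice on d12 and d15 (0 and 9). The calls of Nkx2-2 between d12 and d15 in C57BL/6J and Cav1-null mice were lost in that model, at -0.80 and -1.13 (-0.85 and -1.13 without it). RLE size factors moved no count by over 1.5 times. The cause of these shifts was not tested.

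With library sizes alone, the median change (log2) over all genes went from 0.02 to 0.46 between d12 and d15 in AKR/J (3588 higher and 1214 lower, against 2958 and 2800), from 0.02 to -0.38 in AKR/J on d12 (1362 and 3153, against 2797 and 2732), from 0.06 to 0.23 on d15 (5542 and 3281, against 3696 and 4393), from 0.03 to 0.21 in Cav1-null mice on d15 (7192 and 4952, against 5310 and 6311) and from 0.03 to 0.17 between d15 and d17 in C57BL/6J (2099 and 968, against 1484 and 1110). For the early change of AKR/J against that of C57BL/6J it went from 0.03 to 0.58 (89 and 18, against 1 and 14).

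With 1 library left out, the counts ranged from 1 to 5 and 2 to 4 in the early and late phase of AKR/J, 0 to 5 and 0 to 2 in C57BL/6J, and 2 to 5 and 7 to 7 in Cav1-null mice. Against C57BL/6J they ranged from 0 to 4, 5 to 8 and 0 to 9 in AKR/J on d12, d15 and d17, and from 0 to 1, 9 to 9 and 0 to 5 in Cav1-null mice. For the differences in change they were 0 to 0 in both phases of AKR/J, 0 to 1 in the early and 0 to 5 between d15 and d17 in Cav1-null mice. Pdgfra between d15 and d17 in AKR/J reversed, from -0.28 to 0.68 without d15 replicate 2, and ranged from -0.62 to 0.68 over the libraries left out. The median over libraries of the upstream share of Mbp junction reads was 76.7% with each junction counted once and 43.9% with 1 count per row of junction and transcript, since downstream junctions are listed for 4 or 5 transcripts and upstream ones for 1.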
